A study of Mus musculus with 10 samples.

Results

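The Fc gamma receptor genes of mouse microglia are described here: the inhibitory receptor gene Fcgr2b, the activating receptor genes Fcgr1, Fcgr3 and Fcgr4, and Fcer1g, which encodes the signalling chain that the activating receptors share. The members were taken by gene symbol, and the set was selected on measured values, the estimated counts in DKO against WT libraries, so the differences between genotypes in these genes are given as a description, with no test. All 5 genes were among the 53697 genes of the files and among the 13916 genes that passed the filter on low counts. The 10 libraries hold RNA of microglia, the resident macrophages of the brain: 5 came from wild-type (WT) mice and 5 from mice that lack both Bhlhe40 and Bhlhe41 (double knock-out, DKO). These genes encode related transcriptional repressors, and the comparison asks what microglia express without them. The mice were untreated females on the C57BL/6 background, Bhlhe40-/-Bhlhe41-/- in the DKO group and C57BL/6J or Rosa26Stop-YFP in the WT group, and the labels do not say which WT library came from which strain. The methods give ages of at least 2 and 6 months, without an age for a library, and the labels call the libraries biological replicates without saying that each is 1 mouse, so p-values measure only the spread between these libraries. Both genes were missing from the whole body, not from microglia alone.

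Fc gamma receptors bind the constant part of IgG on coated particles and immune complexes. The activating receptors signal through the ITAM of the FcR gamma chain, where Src family kinases and Syk start engulfment and the oxidative burst, whereas Fcgr2b carries an ITIM in its own tail and recruits the phosphatase SHIP-1, which dampens the same signal. The balance of activating and inhibitory receptors is known to set how strongly a macrophage answers to a given amount of IgG, and microglia are known to raise these receptors in ageing and disease. In the brain dissociation of this study, cells were sorted as live CD11b+ CD45.2+ cells without Ly6C, Ly6G, MHCII or CD38 on their surface, after staining with an FcR block antibody, whose clone is known to bind the proteins of Fcgr2b and Fcgr3. Sorting was not on the receptors measured here.

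Fcgr2b and Fcgr3 are close paralogs, and the sequences of exon 4 of both genes are shown because they bear on how far reads can tell the genes apart. Each has 255 bases and encodes the extracellular immunoglobulin-like domain nearer to the membrane. The exons were read from GENCODE M21 transcripts of GRCm38, on the minus strand, at chr1:170966446-170966700 for Fcgr2b and chr1:171053939-171054193 for Fcgr3, and capitals mark the 5 bases at which they differ.
Fcgr2b: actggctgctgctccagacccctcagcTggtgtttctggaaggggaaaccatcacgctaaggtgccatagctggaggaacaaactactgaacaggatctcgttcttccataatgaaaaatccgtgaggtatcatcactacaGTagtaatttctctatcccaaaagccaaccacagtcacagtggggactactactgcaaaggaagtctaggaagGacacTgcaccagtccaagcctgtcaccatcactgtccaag
Fcgr3: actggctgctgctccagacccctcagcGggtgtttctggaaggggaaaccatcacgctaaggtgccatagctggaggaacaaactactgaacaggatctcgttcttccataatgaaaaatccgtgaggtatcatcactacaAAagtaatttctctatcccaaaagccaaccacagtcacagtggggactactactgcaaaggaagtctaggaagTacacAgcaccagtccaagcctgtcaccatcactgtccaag
These exons were identical at 98.0% of their bases, and the exons that encode the outer domain, exon 3 of both genes, at 94.5%. The longest run shared by a transcript of each gene was 129 bases, and 94 of the 1388 windows of 75 bases in the Fcgr2b transcript also occurred in Fcgr3, against 0 windows of 150 bases. Fcgr4, which lies between the other receptor genes of the cluster, was identical to Fcgr2b at only 55.7% of the bases of exon 4, and shared no window of 25 bases with either gene. The libraries were read from both ends of a fragment, with reads of 150 bases before trimming.

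The sequence before the start of each gene is shown because Bhlhe40 and Bhlhe41 proteins are known to bind the letters CACGTG, and because genes that lie next to each other moved in opposite directions. The stretches below were taken from RefSeq for GRCm38.p6 on the strand of the gene, lie within 120 bases before the start and hold no base of an annotated exon. Capitals mark the letters GAGGAA, a core of sites of the macrophage factor PU.1, TTCNNNGAA, the form of STAT sites, and GAAANNGAA, the form of sites of interferon regulatory factors, each searched on both strands.
Fcgr2b, chr1:170976128-170976174: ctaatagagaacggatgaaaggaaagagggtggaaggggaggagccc
Fcgr4, chr1:171018806-171018919: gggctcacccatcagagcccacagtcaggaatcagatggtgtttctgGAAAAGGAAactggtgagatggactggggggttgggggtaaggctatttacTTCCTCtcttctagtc
Fcgr3, chr1:171059404-171059523: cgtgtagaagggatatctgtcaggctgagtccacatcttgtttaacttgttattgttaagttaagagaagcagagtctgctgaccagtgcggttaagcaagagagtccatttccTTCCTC
Fcer1g, chr1:171234366-171234469: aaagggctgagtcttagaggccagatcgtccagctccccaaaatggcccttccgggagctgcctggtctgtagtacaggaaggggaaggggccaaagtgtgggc
Fcgr1, chr3:96293970-96294089: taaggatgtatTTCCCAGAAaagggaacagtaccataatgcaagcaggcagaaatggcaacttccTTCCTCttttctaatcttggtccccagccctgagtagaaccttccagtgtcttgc
All 5 genes matched a RefSeq window of 300 bases around a start, Fcgr3 with 2 windows, of which the first is shown. The letters CACGTG occurred in the windows of 0 of the 5 genes and in 7.15% of 32851 windows of all genes. The looser form CANNTG, which includes them, occurred for 4 of the 5 genes and in 72.3% of windows. GAGGAA occurred for Fcgr1, Fcgr3 and Fcgr4 and in 28.3% of windows, at 55, 6 and 22 bases before the start. TTCNNNGAA occurred for Fcgr1 alone among the 5, at 109 bases before the start, and in 8.30% of windows, and GAAANNGAA for Fcgr4 alone among the 5, at 73 bases before the start, and in 8.56% of windows. These are matches of letters in short windows, and binding was not measured.

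Total estimated counts were 23382114 to 25871082 in WT and 22483284 to 26109349 in DKO libraries. Levels are given as CPM, counts scaled to a common library total with TMM factors. Bhlhe41, one of the targeted genes, kept 40.6 to 60.5 CPM in DKO against 31.0 to 47.0 in WT, but the mean length of its transcripts in the files fell to 1852 to 2719 bases against 5878 to 6133, and Bhlhe40 was near 0 in both genotypes, at 0.144 to 1.05 CPM in WT and 0.0429 to 0.340 in DKO. Of 13916 genes, 862 passed the edgeR test at an adjusted p of 0.05, or 6.19%, of which 604 (4.34% of all) were higher in DKO and 258 (1.85%) lower, and 402 genes passed without DKO 1 and 1618 without WT 3, the lowest and highest counts with 1 library left out. The libraries of the WT group were less alike, with a mean r of log2 CPM to their own group of 0.969 to 0.979 against 0.984 to 0.988 in DKO. The 10 microglia markers summed to 82707 to 91602 CPM in WT and 77804 to 93980 in DKO, and 1 of them passed the test, P2ry12, which fell from 10766 ± 1335 to 7610 ± 974 CPM (adjusted p = 0.0301). Its part in the receptor differences was not tested. In such bulk samples, fewer cells of a type and less RNA per cell cannot be told apart.

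RNA of the inhibitory receptor was lower in every DKO library than in every WT library. Fcgr2b (ENSMUSG00000026656.15, chr1:170958617-170976547, minus strand) encodes the only Fc gamma receptor with an ITIM. It measured 503, 534, 528, 558 and 384 CPM in WT 1 to WT 5, and 307, 297, 268, 285 and 289 CPM in DKO 1 to DKO 5. The DKO values lay close together and WT 5 was the lowest of the WT group, still above the highest DKO library. The mean was 502 ± 68.4 CPM in WT and 289 ± 14.7 in DKO (SD, n = 5 each), a log2 fold change of -0.80 (SE 0.10) or 0.576 times the WT level. That change was lower than that of all but 3.06% of the tested genes.

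Fcgr4 (ENSMUSG00000059089.4, chr1:171018920-171029761, plus strand) encodes an activating receptor that binds IgG2a and IgG2b and is known to be rare on resting microglia. Its RNA was the scarcest of the set and the one that stood furthest above WT in DKO. It measured 24.9, 18.8, 17.0, 21.3 and 15.5 CPM in WT 1 to WT 5, and 39.7, 35.2, 42.7, 45.6 and 48.0 CPM in DKO 1 to DKO 5. Each DKO library was above each WT library, with a gap between 24.9 and 35.2 CPM. The mean was 19.5 ± 3.72 CPM in WT and 42.2 ± 4.99 in DKO, a log2 fold change of 1.12 (SE 0.14) or 2.17 times the WT level, and the change was above that of 93.9% of tested genes.

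Fcgr3 (ENSMUSG00000059498.13, chr1:171051174-171064935, minus strand) encodes an activating receptor of low affinity for IgG. It measured 1779.8, 1986, 1947, 2223 and 1776 CPM in WT 1 to WT 5, and 2283.5, 2455, 2229, 2332 and 2279 CPM in DKO 1 to DKO 5. The groups did not overlap, but only narrowly, since WT 4 lay just under DKO 3. The mean was 1942 ± 183 CPM in WT and 2316 ± 86.0 in DKO, a log2 fold change of 0.25 (SE 0.082), which had the other sign, -0.11, when TPM were used in place of counts. In that setting the median of all genes was itself -0.26, against -0.01 with counts.

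Fcgr1 (ENSMUSG00000015947.10, chr3:96282909-96293969, minus strand), which lies away from the others, encodes the receptor of high affinity for IgG2a. It measured 423, 379.8, 346, 566 and 543 CPM in WT 1 to WT 5, and 302, 299.6, 333, 401 and 405 CPM in DKO 1 to DKO 5. The groups overlapped, and libraries numbered 4 and 5 were high in both genotypes. The mean was 452 ± 98.2 CPM in WT and 348 ± 52.1 in DKO, a log2 fold change of -0.38 (SE 0.15) or 0.771 times the WT level. Among the activating receptors, Fcgr1 was thus the one on the side of Fcgr2b.

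Fcer1g (ENSMUSG00000058715.11, chr1:171229572-171234365, minus strand) encodes the FcR gamma chain, which the activating receptors need for signalling and for their place on the surface. It measured 1175, 1227, 1210.2, 1368 and 1002 CPM in WT 1 to WT 5, and 1392, 1397, 1313, 1424 and 1423.5 CPM in DKO 1 to DKO 5. WT 4 was above DKO 3, so that the groups overlapped, and WT 5 was the lowest of all. The mean was 1196 ± 131 CPM in WT and 1389.9 ± 45.3 in DKO, a log2 fold change of 0.22 (SE 0.087), which had the other sign, -0.16, with TPM.

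**Figure D1:**
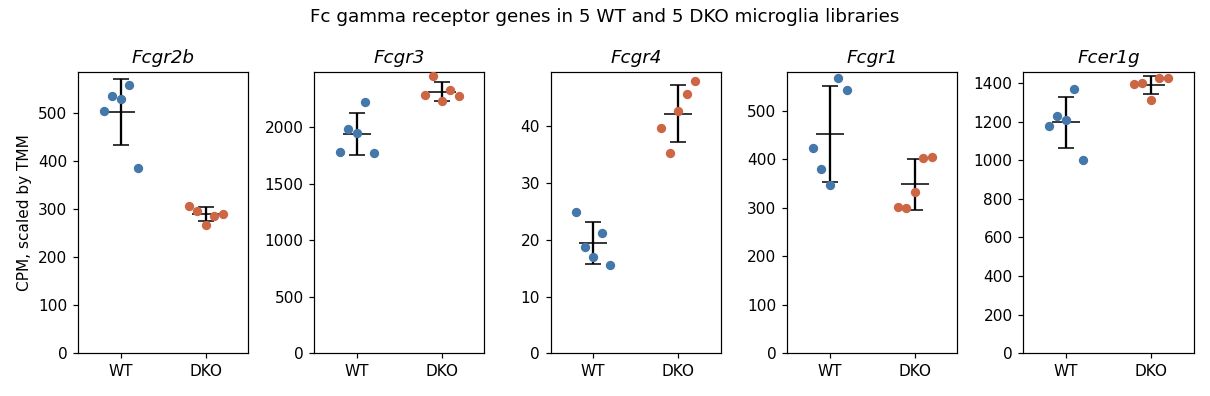
CPM of the 5 genes on separate axes that start at 0, each point 1 library (WT 1 to 5 and DKO 1 to 5 from left to right within a group), with the mean as a dash and the SD as a bar. The WT and DKO points of Fcgr2b, Fcgr3 and Fcgr4 do not overlap, and those of Fcgr1 and Fcer1g do.

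For 3 of the 5 genes, Fcgr2b, Fcgr3 and Fcgr4, the genotypes did not overlap in CPM, as for 7.62% of all tested genes, whereas in TPM they did not overlap for Fcgr1 and Fcgr2b. Nothing is read from this count, because the same contrast chose the genes. The signs with counts were the same whichever library was left out, with log2 fold changes of -0.88 to -0.75 for Fcgr2b, 1.04 to 1.22 for Fcgr4, 0.22 to 0.31 for Fcgr3, -0.46 to -0.28 for Fcgr1 and 0.16 to 0.27 for Fcer1g. Without both WT 1 and WT 5 they were -0.90, 1.15, 0.17, -0.31 and 0.13 in the same order.

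The reversal of Fcgr3 and Fcer1g with TPM went together with 1 small gene. TPM share a common total in each library, and Gm23935, a short RNA gene, held 23.2% to 26.6% of it in the DKO libraries and 2.85% to 6.60% in 4 of the WT libraries, but 20.3% in WT 3. When TPM were recomputed without that gene, a setting chosen after seeing the data, the log2 fold changes were 0.19 for Fcgr3, 0.14 for Fcer1g, 1.03 for Fcgr4, -0.86 for Fcgr2b and -0.44 for Fcgr1, and the median of all genes was -0.05.

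Among the 5 genes, the libraries numbered 4 and 5 differed from those numbered 1 to 3 in Fcgr1 above all. The labels do not say what a number stands for. For Fcgr1, the WT libraries 1 to 3 measured 346 to 423 CPM and the DKO libraries 1 to 3 measured 299.6 to 333, whereas the libraries 4 and 5 measured 543 to 566 in WT and 401 to 405 in DKO. Fcgr1 was therefore separate between genotypes inside each set of numbers, though not over all libraries, with log2 ratios of the means of -0.30 and -0.46. Fcer1g was likewise separate inside each set, with log2 ratios of 0.18 and 0.26. The other genes were separate in both sets as well, with log2 ratios of -0.84 and -0.72 for Fcgr2b, 0.96 and 1.35 for Fcgr4, and 0.29 and 0.21 for Fcgr3. Groups this small separate easily, and the share of all tested genes that did so inside a set was not computed. Nothing is read from this separation, because the same contrast chose the genes.

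Levels of different genes were compared as CPM per kilobase of effective transcript length. In WT, Fcer1g was highest at 3152 ± 342 CPM per kilobase, followed by Fcgr3 at 1812 ± 156. Fcgr2b at 372 ± 46.7 and Fcgr1 at 333 ± 75.4 did not differ beyond their spread, and Fcgr4 was far below at 19.9 ± 3.97. In DKO, Fcer1g stood at 3590.3 ± 103 CPM per kilobase, Fcgr3 at 2137 ± 71.1, Fcgr1 at 250.4 ± 32.2, Fcgr2b at 211 ± 8.88 and Fcgr4 at 42.6 ± 5.08. Fcgr1 and Fcgr2b thus stood in the other order there, with 221 to 290.4 against 197 to 222 CPM per kilobase, ranges that just touched.

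The summed RNA of the 4 receptor genes overlapped between genotypes, and its make-up differed. The sum was 2538 ± 214 CPM per kilobase in WT and 2640.0 ± 66.5 in DKO, and WT libraries lay on both sides of the DKO libraries. Fcgr3 made up 71.4% ± 1.60 of this sum in WT and 80.9% ± 1.32 in DKO, with no overlap. The share of Fcgr2b was 14.7% ± 1.43 in WT and 7.98% ± 0.356 in DKO, again with no overlap, and that of Fcgr4 was 0.787% ± 0.165 and 1.62% ± 0.207. The share of Fcgr1 was 13.1% ± 2.81 and 9.49% ± 1.20, with overlap.

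**Figure D2:**
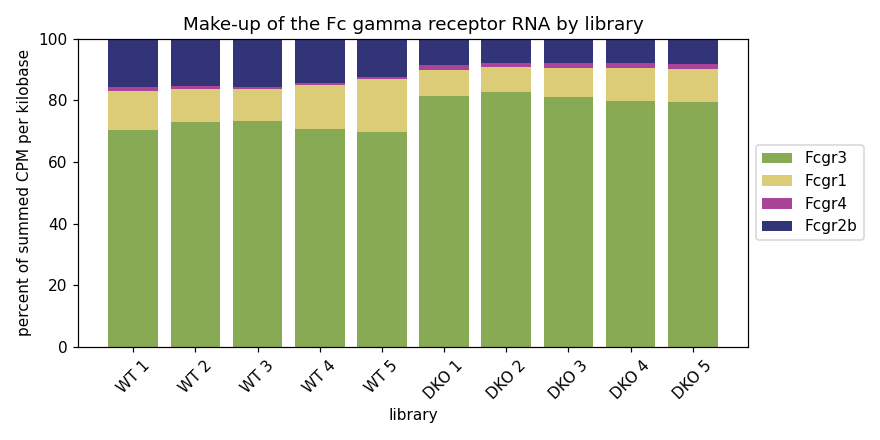
Share of each of the 4 receptor genes in their summed CPM per kilobase, in percent, as 1 stacked bar for each of the 10 libraries. Fcgr2b, the top block, takes 12.3% to 15.7% of the WT bars and 7.69% to 8.55% of the DKO bars.

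The ratio of activating to inhibitory receptor RNA was higher in every DKO library than in every WT library. Fcgr3 RNA over Fcgr2b RNA, both per kilobase, was 4.48, 4.74, 4.71, 4.93 and 5.66 in WT 1 to WT 5, and 9.51, 10.6, 10.6, 10.3 and 9.84 in DKO 1 to DKO 5. The mean log2 ratio differed by 1.05 (SE 0.065), or 2.08 times. The sum of Fcgr1, Fcgr3 and Fcgr4 over Fcgr2b was 5.36, 5.50, 5.42, 5.97 and 7.14 in WT 1 to WT 5, and 10.7, 11.8, 11.997, 11.9 and 11.4 in DKO 1 to DKO 5. Here too WT 5 was the highest of its group and below each DKO library, and the mean log2 ratio differed by 0.98 (SE 0.083).

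The single activating receptors differed in this ratio. Fcgr4 over Fcgr2b was 0.0536 ± 0.00899 in WT and 0.203 ± 0.0280 in DKO, a difference of 1.92 (SE 0.14) on the log2 scale. Fcgr1 over Fcgr2b was 0.919 ± 0.304 and 1.19 ± 0.172, with overlap between the genotypes and a log2 difference of 0.42 (SE 0.22). The ratio of the shared chain to its receptors, Fcer1g over the sum of Fcgr1, Fcgr3 and Fcgr4, was 1.46 ± 0.127 in WT and 1.48 ± 0.0455 in DKO, a log2 difference of 0.03 (SE 0.062). With CPM not divided by length, the difference for the summed activating genes was 0.95. With TPM it was 0.98, the same by construction, since TPM within a library are also counts over effective length.

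**Figure D3:**
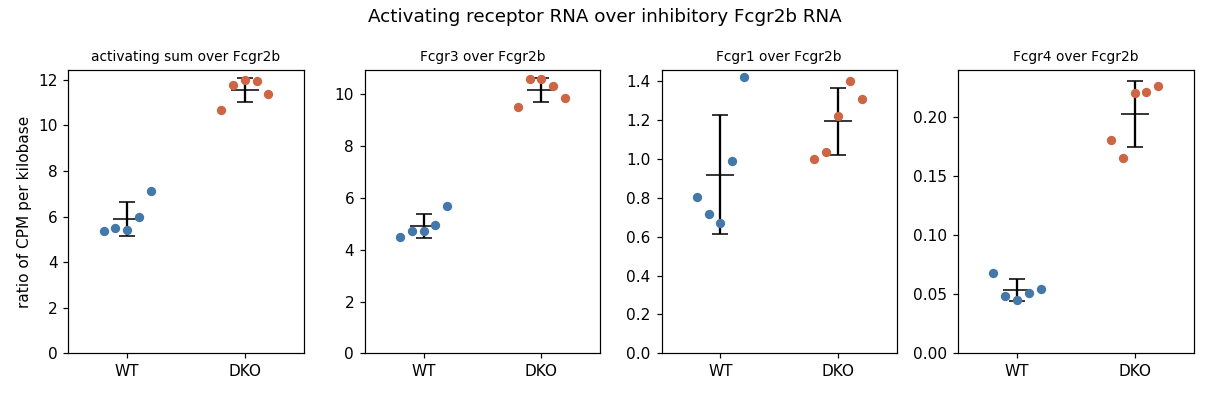
Ratios of CPM per kilobase of activating receptor genes over Fcgr2b, on axes that start at 0, each point 1 library, with the mean as a dash and the SD as a bar. WT and DKO are apart for the activating sum, Fcgr3 and Fcgr4, and overlap for Fcgr1, where WT 5 reaches 1.42.

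The counts of Fcgr2b and Fcgr3 could depend on how any reads that fit both genes were divided. Estimated counts were whole numbers, within 0.001, in 10 of 10 libraries for Fcgr1 and for Fcer1g, but in 0 of 10 for Fcgr2b and in 1 of 10 for Fcgr3 and for Fcgr4, as happens when a counting tool divides reads between features. Fcgr4 shared no window of 25 bases with Fcgr2b or Fcgr3, so such counts do not tell which features shared reads. Summed over both genes, Fcgr2b and Fcgr3 measured 2444 ± 238 CPM in WT and 2605 ± 93.6 in DKO, with overlap and a log2 fold change of 0.09 (SE 0.083). Within that sum, Fcgr2b took 22.03%, 21.2%, 21.3%, 20.1% and 17.8% in WT 1 to WT 5, and 11.9%, 10.8%, 10.7%, 10.9% and 11.3% in DKO 1 to DKO 5. How much of the difference between the genes passed through shared reads was not tested.

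The files also give a mean transcript length for each gene, which moves when the mix of isoforms moves. It overlapped between genotypes for all 5 genes: 1497 to 1534 bases in WT and 1509 to 1530.2 in DKO for Fcgr2b, 1569 to 1701 and 1617 to 1712 for Fcgr1, and nearly constant values close to 1343 for Fcgr3, 1256 for Fcgr4 and 674 for Fcer1g. Single isoforms of Fcgr2b, of which macrophages and B cells are known to favour different ones, were not resolved. Genes that overlap the members were almost silent, the highest being Gm38204, antisense to Fcgr2b, at 0.0376 CPM in 1 library.

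How the members varied between libraries of 1 genotype was described apart from the genotype difference. After the mean of each genotype was taken off, Pearson's r of log2 CPM over the 10 libraries was 0.92 between Fcgr2b and Fcer1g, although their genotype differences had opposite signs and the pooled r was -0.46. It was 0.82 between Fcgr3 and Fcer1g, with a pooled r of 0.92, and 0.68 between Fcgr3 and Fcgr2b, with a pooled r of -0.63. Fcgr1 varied apart from the others, with r of -0.37 to 0.30 within genotype. These values rest on 10 libraries that share their depth and their set of numbers, and describe them only. For Fcgr2b, Fcgr3 and Fcer1g alike, WT 5 was the lowest and WT 4 the highest of the WT libraries. How far the r values rest on WT 4 and WT 5 was not tested.

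The genes most like each member in pattern over the 10 libraries were sought among 7977 genes by Pearson's r. For Fcgr2b these were Gimap6, Kcnip3 and Bbs9, with r of 0.97, 0.95 and 0.95, which fell to 0.71, 0.71 and 0.58 within genotype. Fcgr4 was closest to H2-K1, a classical MHC class I gene, Samhd1, which encodes a dNTPase that restricts viruses, and Anxa4, with r of 0.98, 0.97 and 0.96, and 0.79, 0.64 and 0.61 within genotype. For Fcgr3 they were Pilra, Igsf6 and Ifi30, with r of 0.96, 0.96 and 0.96, and for Fcer1g they were Fth1, B2m and Ifi30, with r of 0.99, 0.99 and 0.97. Ifi30, which encodes a lysosomal thiol reductase of antigen processing, was thus on both lists, and within genotype the r of the Fcer1g genes was 0.97 to 0.98. Fcgr1 was closest to Nsmce1, Tmem59 and Psmd14, each with r of 0.98 pooled and 0.97 within genotype.

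The receptors share a cluster on chromosome 1 with genes of other kinds. Of the 26 other tested genes that lay up to 300 kb from the cluster, 0 passed the edgeR test as higher and 1 as lower in DKO. Over all tested genes, 4.34% passed as higher and 1.85% as lower, and nothing is read from such small counts. The lower gene was Olfml2b, with a log2 fold change of -0.50 (SE 0.13, adjusted p = 0.0475). The nearest tested genes did not pass: Fcrlb, an intracellular relative of the receptors beside Fcgr2b, had a log2 fold change of -0.34 (adjusted p = 0.434), Cfap126 beside Fcgr3 had -0.09 (adjusted p = 0.893), and Tomm40l beside Fcer1g had -0.03 (adjusted p = 0.915). Around Fcgr1 on chromosome 3, 0 of 24 tested genes were higher and 2 were lower, Gm20634 with -1.38 (adjusted p = 0.0272) and Txnip, an inhibitor of thioredoxin, with -0.63 (adjusted p = 0.00768). No test compared the members with these neighbours.

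**Figure D4:**
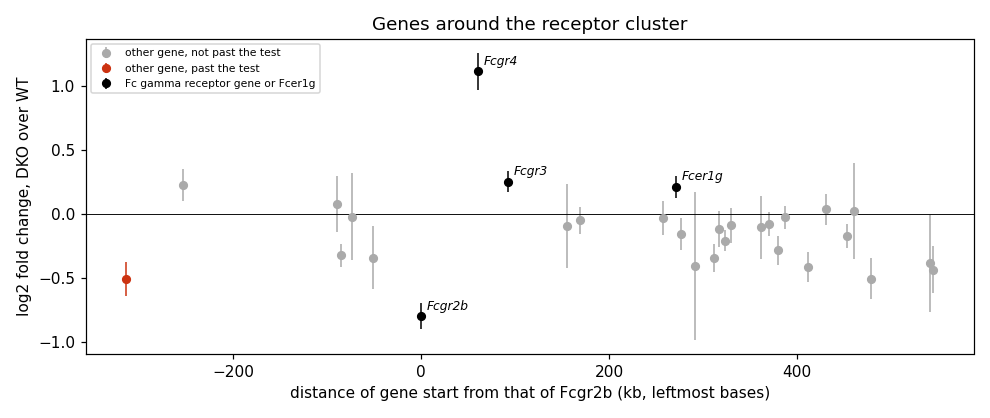
Log2 fold change in DKO over WT, with its SE, against the distance in kilobases from Fcgr2b of the other genes around the cluster on chromosome 1. Fcgr4 at 1.12 and Fcgr2b at -0.80 lie at the top and the bottom, and Olfml2b in red is the 1 other gene past the test.

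The other genes of the pathway were taken from 8 lists with 158 entries, of which 124 were tested. Of these, 14 passed as higher and 2 as lower in DKO, or 12.9%, beside 6.19% of all genes (4.34% higher and 1.85% lower). The median log2 fold change was 0.10, beside -0.01 over all genes. The lists were chosen with earlier results of these data known, so nothing is read from their share of calls. Which genes were called is given by role below, with the edgeR test and p-values adjusted over all 13916 genes.

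Among 15 other Fc receptor and Fc receptor-like genes, 7 were tested and 1 passed. Fcrl1, an Fc receptor-like gene known from B cells, rose from 169 ± 10.7 to 336 ± 26.3 CPM, with no overlap and a log2 fold change of 0.99 (SE 0.082, adjusted p = 4.37e-05). It lay on the side of Fcgr4, while Fcgrt, the neonatal Fc receptor that recycles IgG, had a log2 fold change of 0.21 (adjusted p = 0.451) and the microglial gene Fcrls one of -0.34 (adjusted p = 0.319).

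Of 16 genes of ligands, immunoglobulins and pentraxins, 5 were tested and 0 passed. The genes of IgG, which the receptors bind, were silent: Ighg1, Ighg2c and Ighg3 had 0 counts in all libraries, which allows up to 3 counts in a library, and Ighg2b was at 0.275 ± 0.220 CPM in WT and 0.479 ± 0.136 in DKO. The kappa chain gene Igkc was also at 0. Ighm, the heavy chain of IgM, was nevertheless present at 490 ± 105 CPM in WT and 622 ± 119 in DKO, a log2 fold change of 0.34 (SE 0.17, adjusted p = 0.251), and Ighd at 14.4 and 21.2 CPM had 0.55 (adjusted p = 0.287). Of the 10 B cell markers, 6 were under 1 CPM in every library, among them Pax5 and Fcmr, which had no count, and 4 were present, among them Ighm and Ighd. Of the others present, Cd79b measured 65.8 ± 20.2 CPM in WT and 86.6 ± 30.0 in DKO, and Cd22 measured 15.1 ± 9.36 and 45.5 ± 23.8 (adjusted p = 0.0687).

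Of 30 genes of ITAM signalling, 28 were tested, of which 2 rose and 1 fell. Lat2, an adapter of the linker family that lies below Syk, rose from 201 ± 35.8 to 395 ± 49.98 CPM, with a log2 fold change of 0.98 (SE 0.14, adjusted p = 0.00159). Fgr, a Src family kinase of myeloid cells, rose from 8.79 ± 2.40 to 17.0 ± 1.47 CPM (log2 fold change 0.95, adjusted p = 0.0127, or 0.0511 with TPM), and its relative Src fell from 5.36 ± 1.24 to 2.70 ± 0.389 CPM (log2 fold change -0.99, adjusted p = 0.0140). Among the kinases through which the FcR gamma chain is known to signal, Syk had a log2 fold change of 0.10 (adjusted p = 0.775) and Lyn one of 0.11 (adjusted p = 0.374). The median over the 28 genes was -0.00, that over all genes -0.01.

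Below the inhibitory receptor, all 10 listed genes were tested and 1 rose. Dok2, an adapter that restrains Ras signalling, rose from 0.558 ± 0.354 to 1.95 ± 0.378 CPM (log2 fold change 1.79, adjusted p = 0.0273), a low level, and it no longer passed without any one of WT 1, WT 2, WT 4, DKO 1, DKO 2, DKO 4 and DKO 5, or with the replicate block, where its adjusted p was at most 0.0680. Inpp5d, which encodes the SHIP-1 that Fcgr2b recruits, was at 804 ± 188 CPM in WT and 880.1 ± 152 in DKO (log2 fold change 0.13, adjusted p = 0.671), and Ptpn6, which encodes SHP-1, had a log2 fold change of 0.22 (adjusted p = 0.238).

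Of 22 receptors and adapters set beside Fcer1g, 10 were tested, 4 rose and 0 fell. Cd300lb rose from 2.45 ± 0.942 to 11.5 ± 1.23 CPM (log2 fold change 2.23, adjusted p = 0.000241), Cd300c2 from 471 ± 43.6 to 653 ± 48.8 CPM (0.47, adjusted p = 0.0104, or 0.0513 with upper-quartile factors and 0.435 with TPM) and Cd300ld from 0.637 ± 0.187 to 1.75 ± 0.579 CPM (1.45, adjusted p = 0.0165), all of the CD300 family of lipid-binding receptors. Clec7a, the beta-glucan receptor dectin-1, which carries its own ITAM-like motif, rose from 10.3 ± 7.93 to 65.5 ± 16.0 CPM (2.67, adjusted p = 0.0223), and did not pass without DKO 1 or without DKO 2 (adjusted p at most 0.0594). Clec7a measured 13.8 to 19.5 CPM in WT 1 to WT 3, but 2.30 and 1.66 in WT 4 and WT 5. In DKO it measured 61.3 to 90.7 CPM in libraries 1 to 3 and 54.5 and 50.7 in libraries 4 and 5. Tyrobp, which encodes the adapter DAP12, had a log2 fold change of 0.20 (adjusted p = 0.343), close to the 0.22 of Fcer1g.

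Of 39 genes of the actin and membrane steps of phagocytosis, 38 were tested, 2 rose and 0 fell. Gsn, which encodes the actin-severing gelsolin, rose from 6.19 ± 1.58 to 18.1 ± 3.35 CPM (log2 fold change 1.55, adjusted p = 0.000849). Crk, an adapter of Rac activation, rose from 23.1 ± 10.4 to 68.2 ± 28.0 CPM (1.56, adjusted p = 0.0208), with overlap, and was not past the test without WT 4, WT 5, DKO 1 or DKO 2 (adjusted p at most 0.0977 over all settings). Of the 5 genes of the phagosomal NADPH oxidase, Cybb, which encodes the catalytic subunit, rose from 1.82 ± 0.966 to 7.30 ± 3.28 CPM (2.00, adjusted p = 0.0211), though not without WT 2, WT 4, DKO 1 or DKO 2 (adjusted p at most 0.0581). Cybb measured 1.66 to 2.92 CPM in WT 1 to WT 3, and 0.987 and 0.828 in WT 4 and WT 5. In DKO it measured 9.36 to 10.1 CPM in libraries 1 to 3 and 4.12 and 3.36 in libraries 4 and 5. Its partner Cyba stood at 910 ± 129 CPM in WT and 1048 ± 104 in DKO (0.20, adjusted p = 0.294).

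Of 21 receptors and factors known to set Fc gamma receptor levels, all were tested, 3 rose and 1 fell. Tgfbr2, a receptor of TGF-beta, rose from 867 ± 186 to 1382 ± 95.2 CPM (log2 fold change 0.67, adjusted p = 0.0157, or 0.124 with TPM). Il13ra1, a receptor chain for interleukin 4 and interleukin 13, fell from 597 ± 73.1 to 427 ± 52.0 CPM (-0.48, adjusted p = 0.0273), a call lost without WT 1, WT 2, WT 5, DKO 1 or DKO 2. C5ar1, the complement C5a receptor known to shift the balance of activating and inhibitory Fc gamma receptors, rose from 405 ± 28.9 to 583 ± 106 CPM (0.53, adjusted p = 0.0282), and lost the call without WT 2, WT 4, WT 5, DKO 1 or DKO 2. Over their settings, the adjusted p was at most 0.123 for Il13ra1 and 0.544 for C5ar1.

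**Figure D5:**
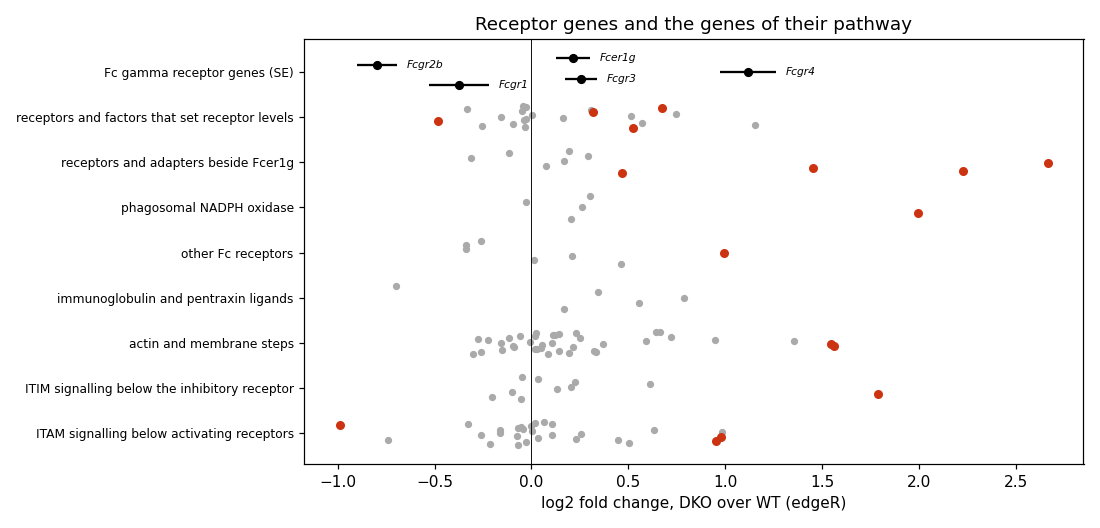
Log2 fold changes in DKO over WT of the 124 tested genes of the 8 pathway lists, with the 16 past the edgeR test in red, and above them the 5 receptor genes in black with their SE. The receptors and adapters beside Fcer1g hold 4 red points, all to the right, and Src and Il13ra1 are the 2 red points to the left.

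Markers of other cells, many of which bear Fc gamma receptors, differed in level. Of 8 neutrophil markers, S100a8, S100a9, Camp and Mmp8 had no count, and 7 of the 8 were under 1 CPM in every library, as were 8 of 9 markers of NK and T cells and 6 of 7 of mast cells. The other neutrophil marker, Csf3r, measured 487 ± 145 CPM in WT and 624 ± 109 in DKO (adjusted p = 0.309). The 8 monocyte markers summed to 8.31 to 16.6 CPM in WT and 8.23 to 14.3 in DKO. The 7 dendritic cell markers summed to 9.89 to 16.1 CPM in WT and 4.89 to 9.91 in DKO. The WT sum was mostly Klrd1 and Itgae. Klrd1 fell from 5.34 ± 2.49 to 1.41 ± 0.614 CPM (adjusted p = 0.0141), and Itgae, at 5.59 ± 0.950 and 2.97 ± 1.04 CPM, did not overlap (adjusted p = 0.0580). The other dendritic cell markers differed in direction. Flt3 had means of 0.863 CPM in WT and 0.528 in DKO, and Xcr1 0.666 and 0.458. Zbtb46 had 1.01 and 2.39 and Clec9a 0.0742 and 0.259, all with overlap, and Cd209a had no count. The 8 markers of border-associated macrophages summed to 5.22 to 16.2 CPM in WT and 7.38 to 28.0 in DKO, with Cd163 and Lyve1 at 0, and 1 of them passed the test, Pf4, which rose from 0.149 ± 0.138 to 3.91 ± 1.55 CPM. The 10 B cell markers summed to 429 to 723 CPM in WT and 584 to 938 in DKO, mostly Ighm, and the 6 plasma cell markers to 161 to 585 and 473 to 539. Most of the plasma cell sum was Xbp1, at 343 ± 220 CPM in WT and 442 ± 28.9 in DKO. Tnfrsf17, at 36.1 ± 6.53 CPM in WT and 27.7 ± 5.94 in DKO, and Prdm1, at 31.7 ± 8.05 and 45.1 ± 6.31, were also present. They differed in direction and overlapped between genotypes. Mzb1 and Sdc1 were under 1 CPM in every library, and Jchain was at 1.02 ± 0.590 CPM in WT and 0.631 ± 0.199 in DKO. The part of these cells in the receptor differences was not tested.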

How the data were processed

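Microglial RNA from the brains of female WT and DKO mice was measured in 10 libraries (TruSeq RNA v2, no strand information, RNA integrity not assessed). The authors used cutadapt 2.6 for trimming, FastQC 0.11.8 for quality and STAR 2.5.3a for alignment to mm10, the tool for gene values being not given in the sources used here. Files as deposited hold an estimated count per gene, with no normalization. They also hold TPM, which the authors' tool scaled to a common total, and a mean length and effective length in bases. Totals were 22483284 to 26109349 estimated counts per library. At this depth the WT mean of Fcgr4, the scarcest member, rests on 412 to 691 estimated counts.

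Estimated counts were rounded, filtered with filterByExpr (minimum count 10), scaled by TMM and fitted by genotype with edgeR 4.0.16 (quasi-likelihood test) in R 4.3.3, with Benjamini and Hochberg adjustment over 13916 genes and a threshold of 0.05. The SE was obtained by dividing the log2 fold change by the root of F, and ± gives an SD of 5 libraries. For the 5 receptor genes only the values of this fit are given. CPM were divided by effective length in kilobases to compare genes. Patterns were compared by Pearson's r of log2 CPM (prior count 2) among genes of at least 3 average log2 CPM. Coordinates are those of GENCODE M21, and windows before starts those of RefSeq. Alternatives were other scaling factors (RLE, upper-quartile, none), other tools (DESeq2 1.42.0, voom of limma 3.58.1, limma on log2 of TPM plus 1), other filters (none, or 1 CPM in 5 libraries), an offset for effective length, a block for the replicate number, a term for the libraries numbered 4 and 5, Fcgr2b and Fcgr3 summed, other ratios, and leaving out WT 1 with WT 5 or each library in turn. TPM recomputed without Gm23935 was added after seeing the data.

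The members, the 8 pathway lists, the 9 marker lists and the motifs were chosen with earlier results of these data known. The text names all members, up to 4 called genes of each list with the smallest p, the IgG and IgM genes and Igkc, the 3 genes most like each member, and the genes beside them. List counts cover each tested gene, and a few genes are not reported here. Fcgrt, Fcrls, Syk, Lyn, Inpp5d, Ptpn6, Tyrobp, Cyba, Cd79b, Cd22, Csf3r, P2ry12, Klrd1, Itgae, Pf4, Xbp1, Mzb1, Sdc1, Jchain, Ifngr2, Spi1 and the called genes around the cluster were named for their role, place or level after their values were seen. So were Flt3, Xcr1, Zbtb46, Clec9a, Cd209a, Tnfrsf17 and Prdm1. The human experiments of the study were not used here.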

Additional observations from a re-analysis of the deposited data

Results flagged for a closer look

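In 3 of 66 groups of 5 libraries, 1 library lay so far from the others that its gap to the nearest, divided by the range of the group, exceeded 0.71. Chance alone gives this in about 1 group in 20. Among the DKO libraries, Fcer1g was low in DKO 3, at 1313 CPM against 1392 to 1424 in the others, with a gap of 0.713 of the range, and this library is the one that overlaps WT 4. Among the WT libraries, the ratio of Fcgr4 to Fcgr3 per kilobase was high in WT 1, at 0.0153 against 0.00951 to 0.0104, a gap of 0.837. Crk was high in WT 3, at 41.0 CPM against 14.1 to 21.4 in the other WT libraries, a gap of 0.727. The cause of these gaps was not tested.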

How the results depend on the processing

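The count of 862 genes was 1629 with DESeq2, 4815 with TPM, 547 with the replicate block, 1431 with a term for the sets of numbers, and 449 without WT 1 and WT 5. Leaving out 1 library gave 402 to 1618. It was over 1.5 times lower without WT 1 (545), WT 2 (528), WT 4 (531), WT 5 (473), DKO 1 (402), DKO 2 (410) or DKO 5 (536), and higher without WT 3 (1618). The share of calls that were higher was 70.1%, 54.6% with upper-quartile factors (median log2 fold change of all genes -0.11), 53.7% with library size alone, 59.8% with the set term, 13.04% with TPM and 54.97% with TPM without Gm23935.

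With TPM the log2 fold changes were -0.74 for Fcgr1, -0.11 for Fcgr3, 0.73 for Fcgr4, -1.16 for Fcgr2b and -0.16 for Fcer1g, and the lists held 3 calls (other Fc receptors), 11 (ITAM), 5 (ITIM), 13 (actin), 2 (NADPH oxidase) and 9 (level-setting). With Fcgr2b and Fcgr3 summed, the log2 fold change was 0.092, in place of those of Fcgr2b and Fcgr3. DESeq2 and the set term gave 2 calls in the NADPH oxidase list, and the set term 4 in the actin list. Leaving out WT 1 and WT 5 gave 1 call in the actin list and 2 in the level-setting list, as did upper-quartile factors and library size for the latter. Over the libraries left out, calls ranged from 0 to 1 (ITIM), 1 to 3 (actin), 0 to 2 (NADPH oxidase) and 1 to 6 (level-setting). With upper-quartile factors, Fcgr3 and Fcer1g were at 0.16 and 0.12. The other values of the receptor genes and ratios moved by less than the SD of log2 values between libraries of a genotype. Apart from the construction of TPM, the cause was not tested.

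With the replicate block, calls were 0 in the ITIM, 1 in the actin and 2 in the level-setting list, and Src and Cd300ld were among the calls lost. Same-numbered libraries had correlations of -0.235 to 0.199, over 0.1 for 2 of 5 numbers, so the numbers were not taken to pair the libraries. Depth limits the scarce genes most, such as Dok2, Cd300ld and Cybb.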

Other observations

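Spi1, which encodes PU.1, a macrophage transcription factor, was spread far more widely in WT than in DKO. It measured 44.8 to 407 CPM in WT, with a mean of 255 ± 192, and 351 to 474 CPM in DKO, with a mean of 427 ± 46.4, and did not pass the edgeR test (log2 fold change 0.74, adjusted p = 0.459). Spi1 was not alone in this: Ifngr2 measured 47.9 to 308 CPM in WT and 360 to 384 in DKO, and Xbp1 91.6 to 517 and 398 to 468. Others were spread more widely in DKO, such as Fcrls, at 4754 to 6600 CPM in WT and 2843 to 6068 in DKO. The part of Spi1 in the levels of the receptor genes was not tested.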
